A study of Homo sapiens with 12 samples.

Results

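The axon guidance ligands and receptors were followed in HCT116 human colorectal carcinoma cells with and without degradation of SDS22, a protein phosphatase-1 regulator encoded by PPP1R7. The members were taken by symbol: every protein-coding gene whose name starts with SEMA, PLXN, NTN, UNC5, ROBO, SLIT, EPHA, EPHB, EFNA or EFNB, plus NRP1, NRP2, DCC and NEO1, without the SLITRK genes. This gave 74 of the 58233 genes in the count table, 37 ligands and 37 others grouped as receptors. UNC50 and UNC5CL entered by their letters, and UNC50, an inner nuclear membrane protein counted in the receptor group, is not a netrin receptor.

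Messenger RNA was sequenced in 4 groups of 3 libraries each, and the series' design text gives the 3 libraries of a group as independent experiments. The parental line, HCT116 Tet-OsTIR1, carries the rice F-box protein TIR1 at the AAVS1 locus under a doxycycline-inducible promoter, and was left untreated or given 2 µg/ml doxycycline (Dox) with 500 µM of the auxin IAA for 48 h. The SDS22-degron line has the same TIR1 transgene and in addition a mini-auxin-inducible degron with mClover on both PPP1R7 alleles, and was left untreated or treated in the same way. All 4 groups therefore carry TIR1, and both Dox/IAA groups received both compounds. The degron cells were grown from isolated colonies after drug selection, so differences between the lines can hold the history of a colony as well as the tag, and these cannot be told apart.

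Axon guidance cues were first known from growing nerve fibres, and epithelial and tumour cells use them to control adhesion, shape and movement. Semaphorins signal through plexins, and the secreted class 3 members bind neuropilins as co-receptors. Netrins act on DCC, neogenin (NEO1) and UNC5 receptors, SLITs on ROBO receptors, and membrane-bound ephrins on EPH receptor tyrosine kinases in touching cells.

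The libraries held 12133915 to 14657508 counts on genes (median 12662965), and log CPM values of libraries in a group correlated at a mean r of 0.991 to 0.994. PPP1R7 transcripts lay between 40.1 and 51.1 CPM (counts scaled to a common library size) in all 12 libraries, which does not check the degron, since it acts on the protein. Of 9 epithelial markers 8 were tested and their summed level was 2874 to 4398 CPM, with VIL1 at or near 0. The epithelial sum went with Dox/IAA from 3695-4139 to 2874-3428 CPM in the parental line. In the SDS22-degron line it was 3573-4398 CPM untreated and 3604-4136 CPM treated, with overlap. Of 8 neuronal markers RBFOX3, SNAP25, STMN2 and ELAVL3 were at or near 0, and SYN1 was at 0.153 to 1.35 CPM. TUBB3 was at 3.19 to 12.6 and MAP2 at 6.10 to 29.6 CPM, and most of the summed neuronal level came from SYT1. The neuronal sum went with Dox/IAA from 96.1-120 to 135-185 CPM in the SDS22-degron line. In the parental line it was 134-177 CPM untreated and 132-215 CPM treated, with overlap. Of 6 fibroblast markers COL1A2, DCN and LUM had no count in any library, but COL1A1 was at 9.88 to 31.7 CPM, and the fibroblast sum went with Dox/IAA from 9.96-13.9 to 17.3-22.9 CPM in the parental and from 13.8-15.8 to 21.3-31.7 CPM in the SDS22-degron line. Of 5 endothelial markers CDH5 had no count and ESAM was at 5.15 to 9.40 CPM, and the sum went from 5.79-6.84 to 7.57-9.64 CPM and from 6.30-6.56 to 9.06-9.31 CPM in the same groups. The 5 leukocyte markers summed to at most 0.782 CPM. The part of these marker shifts, epithelial, neuronal, fibroblast and endothelial, in the members' changes with Dox/IAA was not tested. In RNA from whole cultures, fewer cells with a transcript and less transcript per cell cannot be told apart.

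Of the 74 members, 53 had enough counts to be tested among 16657 genes, and 43 of these had at least 10 counts in every library. The other 10 tested members (EFNA5, NTN5, NTNG2, NRP2, PLXNA2, PLXNC1, SEMA3D, SEMA3E, SLIT1 and UNC5CL) fell below 10 counts in some library, so a member among them could enter through the group in which it was high. PLXNC1 reached 10 counts only in Dox/IAA libraries. NRP2 had 0 to 12 counts in parental and 59 to 100 in SDS22-degron libraries, and PLXNA2 had 5 to 18 and 47 to 89. The calls of a member that entered only through its high groups are not independent of the filter. The 21 members not tested include DCC, EPHA3, EPHA5, EPHA6, EPHA7, NTNG1, ROBO1, ROBO2, SEMA5A and SEMA6D, 10 genes with no count in any library. A count of 0 allows up to 3 counts, or 0.205 to 0.247 CPM depending on the library, for counting error only. The remaining 11 (EFNB3, EPHA8, EPHB1, NTN3, PLXNA4, ROBO4, SEMA4A, SEMA5B, SLIT3, UNC5C and UNC5D) had at most 5 counts in any library. Thus DCC, the best known netrin receptor, and ROBO1 and ROBO2, the main SLIT receptors, were not detected at this depth.

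Levels of different genes are compared as CPM per kb of gene length, averaged over all 12 libraries. The highest receptors were EPHA2 at 85.3 and PLXNB2 at 71.9 CPM per kb, and the highest ligand was SEMA6B, a transmembrane semaphorin, at 32.2 CPM per kb. The order of both receptors turned in Dox/IAA SDS22-degron cells, with PLXNB2 at 99.5 and EPHA2 at 68.9 CPM per kb. EPHB4 led the EPHB receptors at 18.2, NEO1 was the one tested member of its pair at 16.1, and EFNB2 led the ephrin-B ligands at 14.6 CPM per kb. EFNA1 had the highest ephrin-A mean at 7.08 CPM per kb and led in both Dox/IAA groups, whereas EFNA4 was above it in untreated parental cells (7.49 against 5.97), and EFNA2 (6.25) and EFNA4 (5.99) were above it (5.07) in untreated SDS22-degron cells. The leading netrin was NTN1 at 2.56, the tested ROBO was ROBO3 at 2.15, and SLIT2 led the SLITs at 0.362 CPM per kb. NRP1 had the higher neuropilin mean at 1.25 CPM per kb, but NRP2 was above NRP1 in SDS22-degron cells, at 0.409 against 0.225 untreated and 0.347 against 0.257 after Dox/IAA. Among names starting with UNC5 the highest was UNC50 at 16.9, followed by the netrin receptor UNC5B at 9.90 CPM per kb.

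**Figure D1:**
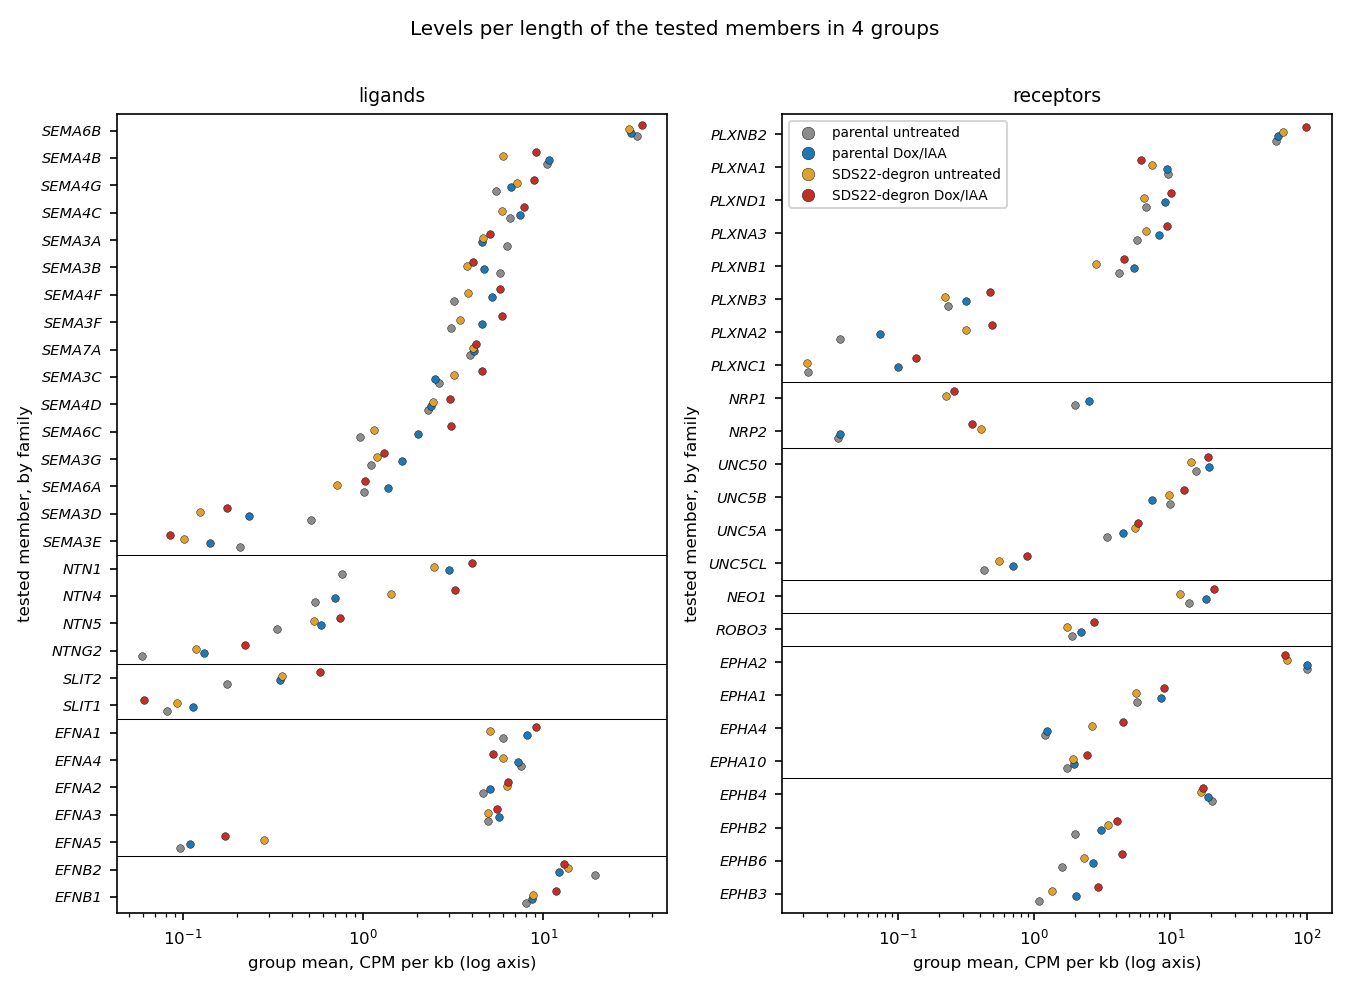
Group means of each tested member in CPM per kb of gene length on a log axis, ligands on the left and receptors on the right, ordered within families separated by lines, with 1 dot for each of the 4 groups. EPHA2 and PLXNB2 stand highest among receptors and SEMA6B among ligands, while NRP1, NRP2 and PLXNA2 have dots far apart by line and PLXNC1 by treatment.

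Members were called higher or lower at an adjusted p under 0.05, and every adjusted p in the text comes from the quasi-likelihood test of edgeR, adjusted by Benjamini-Hochberg over the 16657 genes tested. Dox/IAA in the SDS22-degron line raised 33 of the 53 tested members, against 26% of all tested genes called higher, and lowered 2, EFNA5 and PLXNA1, against 25.5% called lower. Dox/IAA in the parental line raised 21 members against a background of 15.9% and lowered 3 (EFNB2, SEMA3D and UNC5B) against 15.7%. The median log2 fold change of the 53 members was 0.48 in the SDS22-degron line and 0.30 in the parental line, where the medians over all tested genes lay at 0.00. The lower count in the SDS22-degron line was 1 without any of 4 libraries, untreated replicate 1 or 3 or Dox/IAA replicate 1 or 3, and the lower count in the parental line was 5 without its Dox/IAA replicate 3. When same-numbered parental libraries, which deviated together from their group means, were paired through a block, 21 members rose (background 18%) and 5 fell (background 17.9%), with SEMA3A at -0.48 (adjusted p = 0.00124) and SEMA3B at -0.28 (adjusted p = 0.0391) added.

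Between the lines, the untreated SDS22-degron cells had 11 members higher than untreated parental cells (background 13.2%) and 11 lower (background 15%). Without untreated parental replicate 3 the lower count was 7. With the replicate block the members called between the untreated lines went from 22 to 26, and all tested genes called from 4698 to 5382. Added as higher were SEMA3C (0.28, adjusted p = 0.0261) and PLXNA3 (0.23, adjusted p = 0.0336). Added as lower were SEMA3A (-0.45, adjusted p = 0.00231) and NEO1 (-0.20, adjusted p = 0.0283). After Dox/IAA, 20 members were higher in the SDS22-degron line (background 21.8%) and 6 were lower (background 23.1%), and without Dox/IAA parental replicate 3 the lower count was 3. With the replicate block the treated lines had 21 members higher (background 23.4%) and 7 lower (background 24.8%), with NEO1 (0.21, adjusted p = 0.0136) and PLXNB1 (-0.26, adjusted p = 0.0281) added. The member medians were 0.09 and 0.30 on the log2 scale, beside medians over all tested genes of 0.00 and -0.01. The comparison of the treated lines shares its libraries with both Dox/IAA comparisons, and the values are therefore given side by side.

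With the cut-off of the study, an unadjusted p under 0.05 and a log2 fold change beyond 1 in size, fewer members passed. NTN4, PLXNC1, PLXNB3, SEMA6C and EPHB3 rose with Dox/IAA in the SDS22-degron line (background 3.82%) and none fell (background 4.02%). NTN1, NTNG2, PLXNC1 and SEMA6C rose in the parental line (background 2.35%) and SEMA3D fell (background 0.792%). Between the untreated lines EFNA5, EPHA4, NRP2, NTN1, NTN4, PLXNA2 and SLIT2 were higher (background 2.84%) and NRP1, SEMA3D and SEMA3E were lower (background 1.3%). Between the treated lines EPHA4, NRP2, NTN4 and PLXNA2 were higher (background 3.25%) and NRP1 was lower (background 3.38%).

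**Figure D2:**
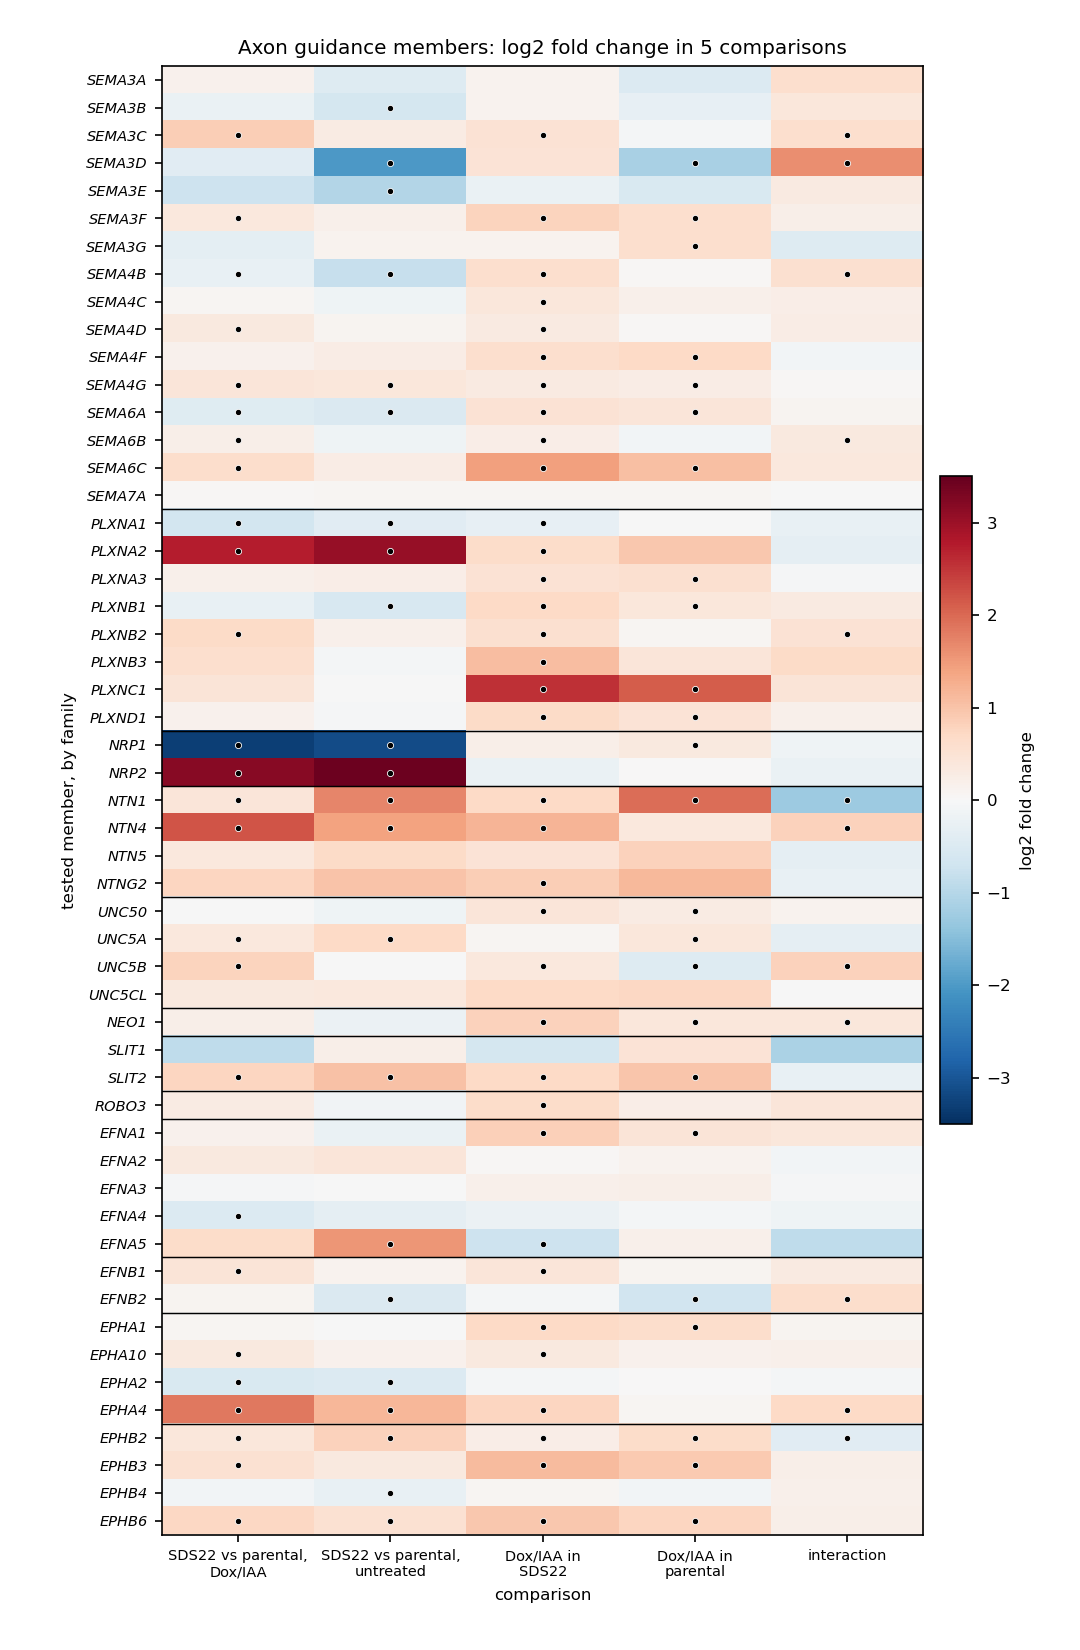
Log2 fold change of the 53 tested members, 1 row each by family, in the 5 comparisons, with red higher and blue lower and a black dot where the adjusted p was under 0.05; SDS22 stands for the SDS22-degron line. The NRP1 and NRP2 rows have opposite colours in both columns between the lines, and the column of Dox/IAA in the SDS22-degron line is mostly red.

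The Dox/IAA comparisons of the lines share no library. Of the 53 tested members 18 were called higher in both, against 12.2% of all tested genes. They made up 85.7% of the members called higher in the parental line and 54.5% of those called higher in the SDS22-degron line. Over all tested genes the same shares were 76.5% and 46.8%, and the difference from the members was not tested. These 18 were the ligands SEMA3F, SEMA4F, SEMA4G, SEMA6A, SEMA6C, NTN1, SLIT2 and EFNA1, the receptors PLXNA3, PLXNB1, PLXNC1, PLXND1, NEO1, EPHA1, EPHB2, EPHB3 and EPHB6, and UNC50. Among them PLXNC1 passed the filter only through the Dox/IAA groups. No member was called lower in both lines, and UNC5B was called in opposite directions.

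PLXNC1, SEMA6C and EPHB3 were among the members called higher in both lines. PLXNA2 and NTN4 were higher in the SDS22-degron line in both conditions. The patterns are not exclusive. SEMA6C and EPHB3 were also higher in the SDS22-degron line after Dox/IAA, and PLXNA2 and NTN4 also rose with Dox/IAA in that line. The start-proximal sequence of these 5 is shown side by side. RefSeq promoters on GRCh38.p14 matched 63 of the 74 members and 45 of the 53 tested ones. Each sequence runs 5′ to 3′ on the strand of the gene, from 250 to 51 bases before the RefSeq start nearest to the start in the count table, and lies outside the gene as the count table draws it. Capitals mark a GC box (GGGCGG) or a CCAAT box (CCAAT) on either strand, and matches that overlap run together.
PLXNC1, chr12:94148327-94148526, plus strand: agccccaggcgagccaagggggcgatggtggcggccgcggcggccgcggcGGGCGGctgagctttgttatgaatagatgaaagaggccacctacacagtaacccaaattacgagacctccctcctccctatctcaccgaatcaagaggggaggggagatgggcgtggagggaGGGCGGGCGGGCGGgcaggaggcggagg
SEMA6C, chr1:151146682-151146881, minus strand: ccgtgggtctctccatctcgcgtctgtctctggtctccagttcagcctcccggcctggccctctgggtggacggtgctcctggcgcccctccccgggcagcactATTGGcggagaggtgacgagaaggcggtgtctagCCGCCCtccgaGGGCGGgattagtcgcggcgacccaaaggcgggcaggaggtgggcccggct
EPHB3, chr3:184561535-184561734, plus strand: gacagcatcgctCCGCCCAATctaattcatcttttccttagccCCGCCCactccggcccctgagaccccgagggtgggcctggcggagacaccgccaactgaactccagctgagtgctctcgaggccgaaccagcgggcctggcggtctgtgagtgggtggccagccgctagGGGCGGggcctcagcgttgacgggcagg
PLXNA2, chr1:208244435-208244634, minus strand: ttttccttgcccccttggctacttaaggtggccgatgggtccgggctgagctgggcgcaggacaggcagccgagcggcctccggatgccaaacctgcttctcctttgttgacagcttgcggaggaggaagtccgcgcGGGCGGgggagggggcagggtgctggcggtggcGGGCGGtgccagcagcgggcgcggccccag
NTN4, chr12:95791206-95791405, minus strand: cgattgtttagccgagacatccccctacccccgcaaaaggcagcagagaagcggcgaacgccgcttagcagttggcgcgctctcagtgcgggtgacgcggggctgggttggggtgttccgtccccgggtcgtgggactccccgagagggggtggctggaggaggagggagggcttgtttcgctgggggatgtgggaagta

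The GC content of these stretches was 66.5% for PLXNC1, 70% for SEMA6C, 67.5% for EPHB3, 70.5% for PLXNA2 and 66% for NTN4, and each held 15 to 18 CpG. PLXNC1 held 4 GC boxes, 3 of them overlapping, EPHB3 held 3, of which 1 overlaps its CCAAT box, SEMA6C and PLXNA2 held 2 each, and NTN4 held neither motif. A GC box was present in 67.2% of the 64 windows of this length that belong to tested members, in 72.7% of the 22 windows of members higher with Dox/IAA in both lines, and in 44.6% of the windows of protein-coding genes. A CCAAT box was present in 21.9%, 18.2% and 28.3% of the same windows. Over all RefSeq windows the shares were 35% for the GC box and 27.4% for the CCAAT box. The windows also differed in base composition, with a median GC content of 67.5% for tested members, 70% for members higher in both lines and 61% for protein-coding genes. The 22 windows belong to 16 genes, and the protein-coding windows were not limited to tested genes. The part of GC content in the GC box shares was not tested, and a match describes the letters only.

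PLXNC1, the receptor of semaphorin 7A, had the largest fold change with Dox/IAA among the members and the lowest mean level per length of those tested. In untreated parental libraries 1 to 3 it was at 0.0844, 0.235 and 0.330 CPM, and after Dox/IAA at 0.9747, 1.11 and 0.865 CPM. The SDS22-degron line went from 0.0729, 0.413 and 0.152 CPM to 1.53, 1.32 and 1.15 CPM. Treated and untreated libraries did not overlap in either line. The log2 fold change was 2.13 ± 0.48 (SE) in the parental line (95% interval 1.12 to 3.13, adjusted p = 0.0025) and 2.57 ± 0.44 in the SDS22-degron line (1.66 to 3.48, adjusted p = 7.72e-05). The untreated libraries hold 1 to 6 counts of PLXNC1 and the treated ones 11 to 20, so it entered the test only through the Dox/IAA groups. Its calls and the lack of overlap are therefore not independent support for a rise, and its size is loosely set. The gene overlaps CEP83 on the other strand, which averaged 273 counts.

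SEMA6C, a transmembrane semaphorin, was at 5.15, 6.02 and 5.52 CPM in untreated and 11.6, 10.1 and 13.1 CPM in Dox/IAA parental libraries. The SDS22-degron line held 7.36, 5.91 and 6.68 CPM untreated and 16.5, 17.8 and 19.4 CPM after Dox/IAA. The highest libraries were those of treated SDS22-degron cells, with no overlap with any other group. The treated lines differed by 0.62 on the log2 scale (adjusted p = 0.000327), and the untreated difference of 0.25 missed the threshold (adjusted p = 0.218). The log2 fold change was 1.06 ± 0.14 (adjusted p = 2.23e-05) in the parental line and 1.43 ± 0.13 (adjusted p = 4.93e-08) in the SDS22-degron line. The interaction, the Dox/IAA effect in the SDS22-degron line minus that in the parental line, was 0.37 ± 0.19 and missed the threshold (adjusted p = 0.212).

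EPHB3, a receptor of B-type ephrins, rose from 5.66, 4.77 and 4.37 CPM to 10.4, 9.24 and 7.95 CPM in the parental line, a log2 fold change of 0.90 ± 0.17 (adjusted p = 0.000572). It rose in the SDS22-degron line from 5.69, 7.50 and 5.31 CPM to 13.2, 11.8 and 15.2 CPM, a change of 1.11 ± 0.15 (adjusted p = 7.68e-06). Treated and untreated libraries did not overlap in either line. Between the treated lines EPHB3 was higher in the SDS22-degron line by 0.54 on the log2 scale (adjusted p = 0.00555). EPHB6, an EPH receptor without kinase activity, rose by 0.74 and 0.93 on the log2 scale in the parental and SDS22-degron lines.

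**Figure D3:**
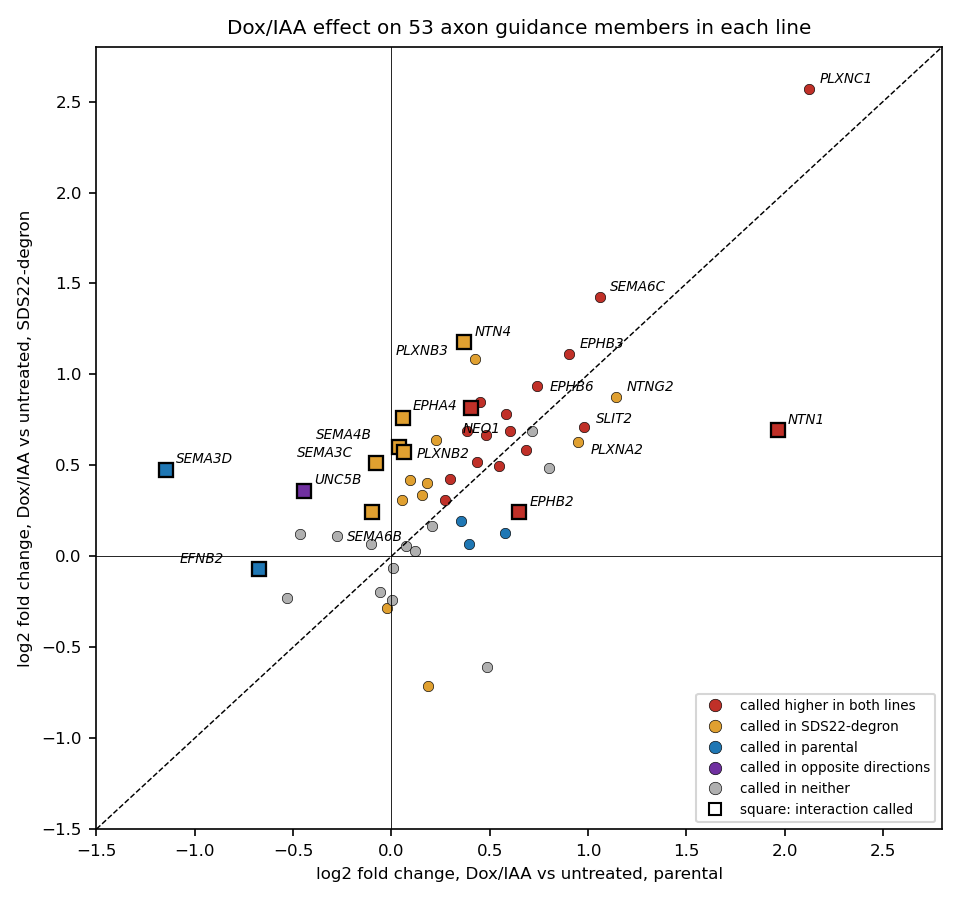
Log2 fold change with Dox/IAA in the parental line (horizontal) against the SDS22-degron line (vertical) for the 53 tested members, coloured by the line in which a member was called, with squares for the 12 members called in the interaction and the dashed line marking equal change. PLXNC1 lies at 2.13 and 2.57, NTN1 lies far to the right of the dashed line at 1.96 and 0.69, and SEMA3D, EFNB2 and UNC5B lie to the left of 0.

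The neuropilins differed most between the lines, and in opposite directions. NRP1, the main co-receptor of semaphorin 3A and also a VEGF co-receptor, was at 20.6, 24.1 and 23.6 CPM in untreated and 27.8, 31.6 and 27.8 CPM in Dox/IAA parental libraries. SDS22-degron libraries held 2.33, 2.48 and 2.96 CPM untreated and 1.75, 4.26 and 2.88 CPM after Dox/IAA. Every SDS22-degron library lay below every parental library, by 8.78-fold untreated (log2 fold change -3.13 ± 0.18, adjusted p = 6.45e-10) and 9.79-fold after Dox/IAA (-3.29 ± 0.17, adjusted p = 2.47e-10). Dox/IAA raised NRP1 by 0.35 ± 0.13 in the parental line (adjusted p = 0.0492), a call that was lost when any single parental library, treated or untreated, was left out and also without any of 4 SDS22-degron libraries. Its change in the SDS22-degron line was 0.20 ± 0.24 (adjusted p = 0.526).

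NRP2, the preferred co-receptor of semaphorin 3F, had 0, 12 and 7 counts in the untreated parental libraries, or 0, 0.938 and 0.577 CPM, and was at 0.450, 0.553 and 0.551 CPM after Dox/IAA. The SDS22-degron libraries held 5.25, 6.88 and 4.93 CPM untreated and 4.50, 5.03 and 4.94 CPM after Dox/IAA. The lines did not overlap, with NRP2 higher in the SDS22-degron line by 3.44 ± 0.36 on the log2 scale untreated (adjusted p = 1.47e-06) and by 3.20 ± 0.37 after Dox/IAA (adjusted p = 1.46e-06). NRP2 entered the test through the SDS22-degron libraries, so these calls are not independent of the filter. Dox/IAA itself changed NRP2 by 0.00 ± 0.59 in the parental line and -0.24 ± 0.23 in the SDS22-degron line, neither past the threshold.

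Per kb of gene length, NRP1 made up 98.3% of the summed neuropilin level in untreated and 98.5% in Dox/IAA parental cells. In SDS22-degron cells its share was 35.7% untreated (30.3% to 42.0% over the 3 libraries) and 41.3% after Dox/IAA (32.0% to 50.5%). The summed level was 2.01 ± 0.196 (SD, n = 3) and 2.56 ± 0.191 CPM per kb in the parental groups and 0.634 ± 0.0675 and 0.605 ± 0.128 CPM per kb in the SDS22-degron groups. The larger neuropilin pool of the parental line was therefore nearly all NRP1, and the smaller pool of the SDS22-degron line was mixed.

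PLXNA2, an A-type plexin that signals with neuropilins, was also set by line. It was at 0.422, 0.547 and 0.577 CPM in untreated and 0.825, 1.42 and 0.787 CPM in Dox/IAA parental libraries. The SDS22-degron libraries held 5.25, 4.26 and 3.57 CPM untreated and 6.56, 6.43 and 7.33 CPM after Dox/IAA, all above every parental library. The difference was 3.06 ± 0.28 on the log2 scale untreated (adjusted p = 3.37e-07) and 2.73 ± 0.23 after Dox/IAA (adjusted p = 3.52e-08). Within the SDS22-degron line Dox/IAA raised it by 0.63 ± 0.17 (adjusted p = 0.00476), and in the parental line the change was 0.95 ± 0.38 (adjusted p = 0.0624). PLXNA1, the more abundant A-type plexin, was lower in the SDS22-degron line, at -0.39 untreated and -0.65 after Dox/IAA on the log2 scale, and it lies on chromosome 3, whose 939 tested genes had medians of -0.27 and -0.26 in the same comparisons.

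**Figure D4:**
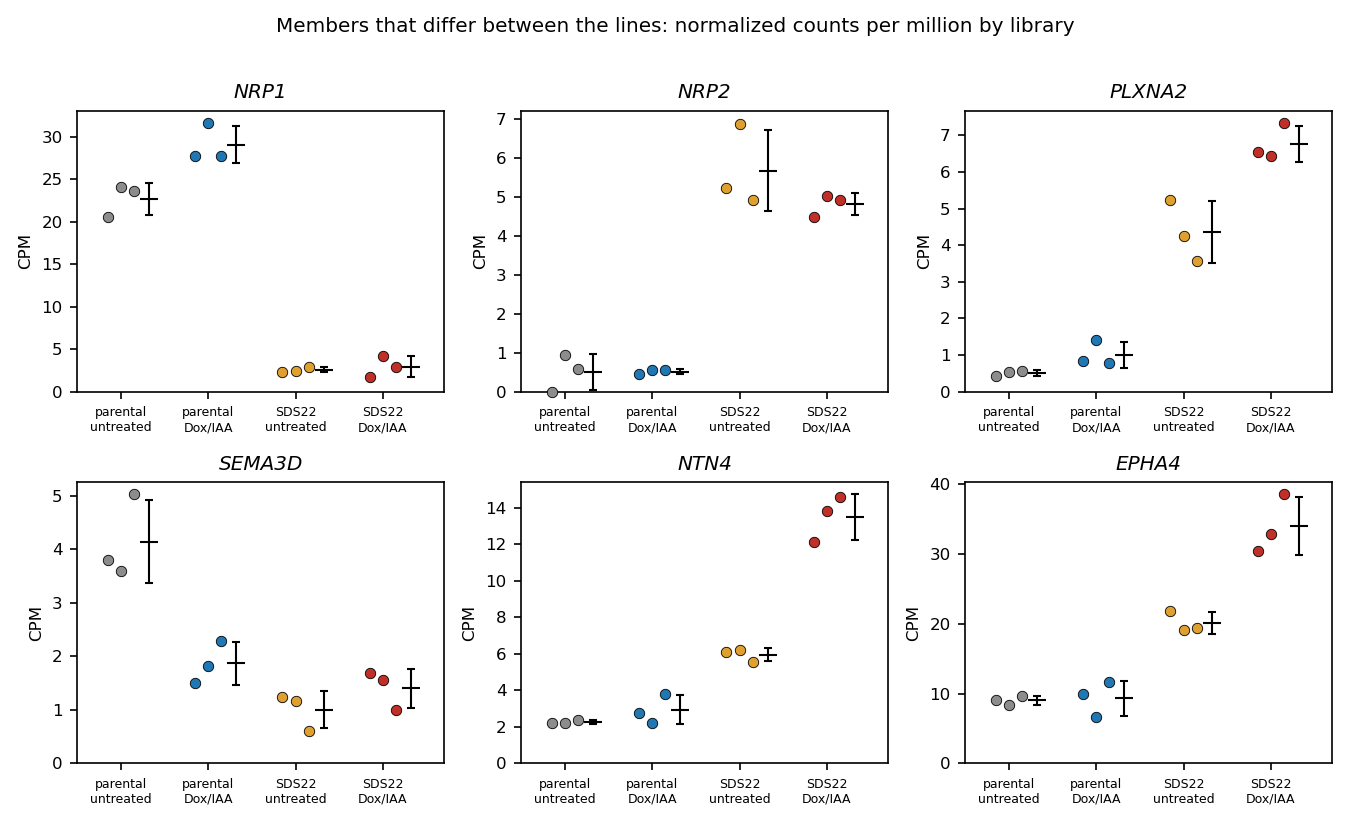
Normalized CPM of 6 members in each library on linear axes from 0, 3 dots per group, with the mean and SD (n = 3) drawn to the right of the dots; SDS22 stands for the SDS22-degron line. NRP1 is high in both parental groups, NRP2 and PLXNA2 in both SDS22-degron groups, SEMA3D is highest in untreated parental cells, and NTN4 and EPHA4 are highest in SDS22-degron cells after Dox/IAA.

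PLXNB2, the most abundant plexin and a receptor of class 4 semaphorins, was at 433, 388 and 472 CPM in untreated and 479, 401 and 471 CPM in Dox/IAA parental libraries. The SDS22-degron line held 476, 480 and 499 CPM untreated and 685, 725 and 756 CPM after Dox/IAA, the last group lying above all others. Dox/IAA raised PLXNB2 by 0.57 ± 0.080 on the log2 scale in the SDS22-degron line (adjusted p = 8.94e-06), its change in the parental line was 0.06 ± 0.080 (adjusted p = 0.592), and the interaction of 0.51 ± 0.11 passed (adjusted p = 0.005). PLXNB3 rose from 1.39, 1.86 and 1.44 CPM to 2.21, 4.41 and 3.38 CPM with Dox/IAA in the SDS22-degron line, by 1.08 ± 0.26 (adjusted p = 0.00202). In the parental line PLXNB3 was at 1.86, 1.64 and 1.40 CPM untreated and 2.25, 1.66 and 2.67 CPM treated, where the groups overlapped and the test was not passed. In all, 7 of the 8 tested plexins rose with Dox/IAA in the SDS22-degron line (background 26%) and 4 in the parental line (background 15.9%), and the difference between these counts was not tested.

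Among the 16 tested semaphorins, 10 rose with Dox/IAA in the SDS22-degron line (background 26%) and none fell (background 25.5%). In the parental line 6 rose (background 15.9%) and SEMA3D fell (background 15.7%), joined by SEMA3A and SEMA3B with the replicate block, and the counts of the lines were not tested against each other. The secreted SEMA3D was at 3.80, 3.596 and 5.03 CPM in untreated parental cells and fell to 1.5, 1.82 and 2.28 CPM after Dox/IAA, a log2 fold change of -1.15 ± 0.24 (adjusted p = 0.00142). SDS22-degron libraries held 1.24, 1.17 and 0.607 CPM untreated and 1.68, 1.55 and 0.988 CPM treated, where the groups overlapped and the change of 0.48 ± 0.32 missed the threshold (adjusted p = 0.232). The untreated parental libraries stood above all others, and the untreated SDS22-degron line was lower by 4.06-fold (-2.02 ± 0.27 on the log2 scale, adjusted p = 1.94e-05), and the interaction was 1.62 ± 0.41 (adjusted p = 0.0113).

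SEMA3C, another secreted class 3 member, was at 18.0, 20.6 and 21.6 CPM in untreated SDS22-degron libraries and rose to 26.4, 29.3 and 30.1 CPM, by 0.51 ± 0.11 on the log2 scale (adjusted p = 0.000511). In the parental line it was at 16.04, 14.9 and 18.9 CPM untreated and 14.8, 14.8 and 17.5 CPM treated, and the interaction of 0.59 ± 0.16 passed (adjusted p = 0.0159) except without untreated parental replicate 3 (adjusted p = 0.0539). SEMA3E, the ligand of plexin D1, was low everywhere, at 1.60, 1.25 and 1.32 CPM in untreated parental and 0.729, 0.550 and 0.759 CPM in untreated SDS22-degron libraries. These did not overlap and differed by -1.03 ± 0.34 (adjusted p = 0.0321), a call lost when any of 5 of the 6 libraries compared (all but untreated parental replicate 2) was left out, and with DESeq2. After Dox/IAA it was at 0.9747, 0.869 and 1.02 CPM in parental and 0.992, 0.465 and 0.247 CPM in SDS22-degron libraries, which overlapped. SEMA3E entered the test through the parental libraries (11 to 19 counts, against 3 to 13 in SDS22-degron libraries). Its untreated call and lack of overlap are therefore not independent of the filter.

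The transmembrane SEMA4B was at 80.2, 68.6 and 72.3 CPM in untreated and 85.5, 62.3 and 79.0 CPM in Dox/IAA parental libraries. SDS22-degron libraries were at 42.5, 40.3 and 43.1 CPM untreated, below all other libraries, and at 63.5, 58.3 and 69.1 CPM after Dox/IAA. The untreated lines differed by -0.81 ± 0.10 on the log2 scale (adjusted p = 9.99e-06), Dox/IAA raised it in the SDS22-degron line by 0.60 ± 0.10 (adjusted p = 7.4e-05), and the interaction was 0.56 ± 0.14 (adjusted p = 0.0116). Between the treated lines the groups overlapped, and the difference of -0.25 ± 0.098 (adjusted p = 0.0459) was lost under 12 of 23 alternative settings. SEMA6B, the most abundant ligand, was at 135, 148 and 153 CPM in untreated and 131, 138 and 140 CPM in treated parental libraries, and at 124, 134 and 136 CPM untreated and 146, 148 and 174 CPM treated in the SDS22-degron line. Its rise of 0.25 ± 0.075 in the SDS22-degron line passed (adjusted p = 0.0105), but not without untreated replicate 1 or Dox/IAA replicate 3 of that line.

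Of the 4 tested netrins, NTN1 and NTN4 were higher in the SDS22-degron line both untreated (background 13.2%) and after Dox/IAA (background 21.8%). NTN1, the secreted ligand of DCC, NEO1 and UNC5 receptors, was at 5.40, 4.53 and 4.70 CPM in untreated parental cells and at 20.5, 19.04 and 17.5 CPM after Dox/IAA. The SDS22-degron line was already at 14.9, 15.9 and 16.7 CPM untreated and reached 25.5, 24.7 and 26.8 CPM after Dox/IAA. None of the 4 groups overlapped. The rise with Dox/IAA was 3.90-fold in the parental line (log2 fold change 1.96 ± 0.12, adjusted p = 7.16e-09) and 1.62-fold in the SDS22-degron line (0.69 ± 0.094, adjusted p = 6.81e-06), and the interaction was -1.27 ± 0.15 (adjusted p = 4.1e-05). The SDS22-degron line was above the parental line by 1.70 ± 0.12 untreated (adjusted p = 8.71e-09) and by 0.43 ± 0.093 after Dox/IAA (adjusted p = 0.000995).

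NTN4, a netrin of basement membranes that also binds laminin, was at 2.19, 2.19 and 2.39 CPM in untreated and 2.77, 2.21 and 3.78 CPM in treated parental libraries. The SDS22-degron line held 6.12, 6.19 and 5.54 CPM untreated and 12.1, 13.8 and 14.6 CPM after Dox/IAA. Each SDS22-degron group lay above both parental groups without overlap, by 1.40 ± 0.19 on the log2 scale untreated (adjusted p = 2.16e-05) and 2.20 ± 0.16 treated (adjusted p = 8.5e-09). Dox/IAA raised it by 1.18 ± 0.14 in the SDS22-degron line (adjusted p = 1.6e-06), while in the parental line the change was 0.37 ± 0.21 (adjusted p = 0.199). The interaction of 0.81 ± 0.26 (adjusted p = 0.0427) was lost when any of 10 of the 12 libraries was left out (all but Dox/IAA parental replicate 3 and Dox/IAA SDS22-degron replicate 1).

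**Figure D5:**
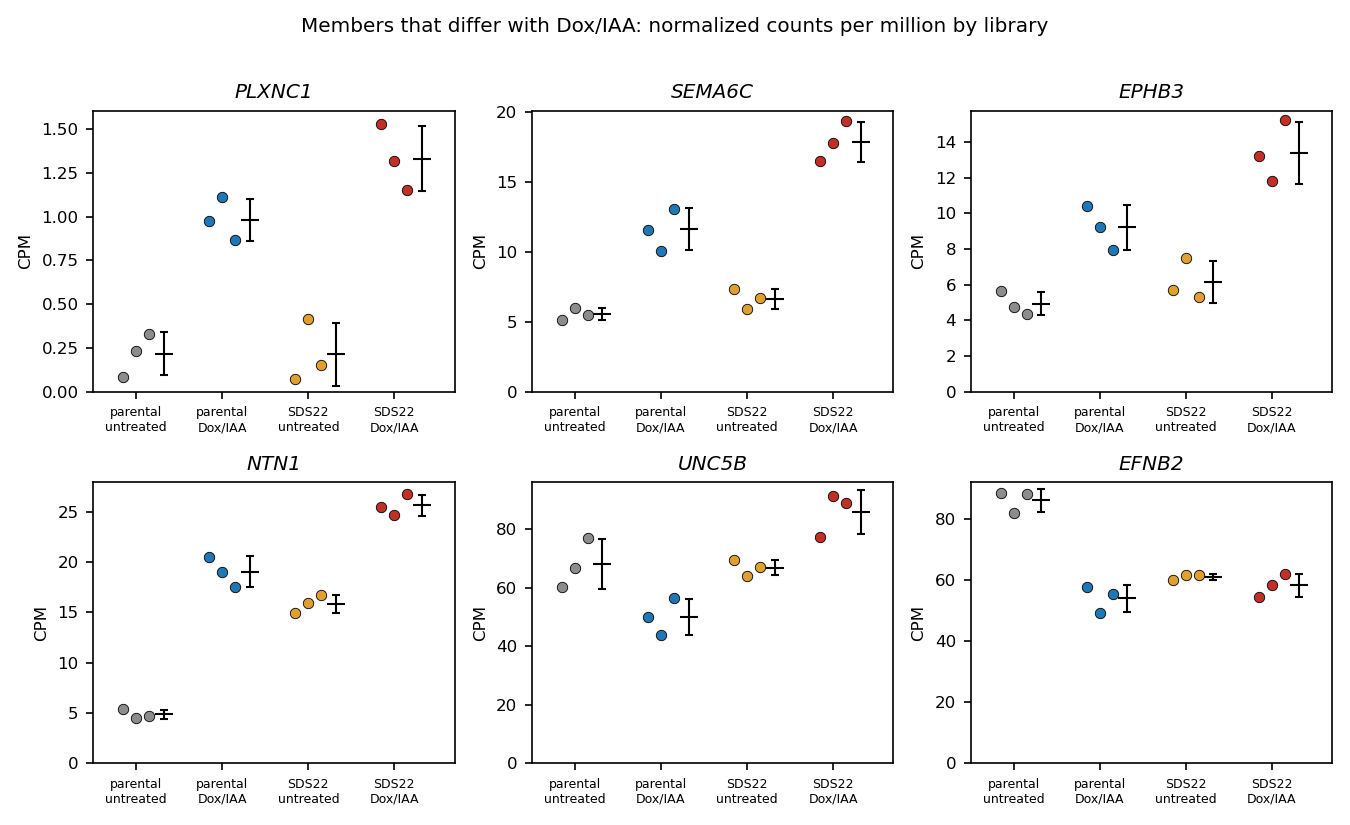
Normalized CPM of 6 members in each library on linear axes from 0, 3 dots per group, with the mean and SD (n = 3) drawn to the right of the dots; SDS22 stands for the SDS22-degron line. PLXNC1, SEMA6C and EPHB3 are higher after Dox/IAA in both lines, NTN1 rises more steeply in the parental line, UNC5B falls in the parental and rises in the SDS22-degron line, and EFNB2 is highest in untreated parental cells.

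On the receptor side of the netrins, NEO1 rose in both lines, from 116, 93.9 and 123 CPM to 152, 130 and 158 CPM in the parental line and from 98.5, 92.5 and 97.1 CPM to 170, 165 and 171 CPM in the SDS22-degron line. Treated and untreated libraries of a line did not overlap. The log2 fold changes were 0.41 ± 0.088 (adjusted p = 0.00178) and 0.81 ± 0.088 (adjusted p = 4.79e-07), and the interaction of 0.41 ± 0.12 (adjusted p = 0.0332) was lost when any of 8 libraries was left out. UNC5B, a netrin dependence receptor, was at 60.4, 66.7 and 77.1 CPM in untreated parental cells and fell to 49.9, 43.9 and 56.4 CPM. SDS22-degron cells had UNC5B at 69.5, 64.2 and 67.0 CPM, rising to 77.3, 91.4 and 89.1 CPM. The changes were -0.44 ± 0.099 (adjusted p = 0.00229) and 0.36 ± 0.096 (adjusted p = 0.00408), with an interaction of 0.80 ± 0.14 (adjusted p = 0.000737), and its antisense gene UNC5B-AS1 averaged 29.7 counts against 874 for UNC5B. UNC5A was higher in the SDS22-degron line by 0.69 untreated and 0.37 after Dox/IAA. UNC50, which is not part of netrin reception, rose by 0.30 ± 0.081 (adjusted p = 0.00939) in the parental line and 0.42 ± 0.081 (adjusted p = 0.000249) in the SDS22-degron line.

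SLIT2, a secreted repellent, was at 1.94, 1.25 and 1.90 CPM in untreated and 3.30, 2.77 and 3.93 CPM in Dox/IAA parental libraries. SDS22-degron libraries held 3.57, 3.65 and 3.04 CPM untreated and 4.65, 6.35 and 5.85 CPM after Dox/IAA. The untreated parental libraries were the lowest and the treated SDS22-degron libraries the highest, and the other 2 groups overlapped. SLIT2 rose with Dox/IAA by 0.98 ± 0.23 (adjusted p = 0.00358) in the parental and 0.71 ± 0.18 (adjusted p = 0.0032) in the SDS22-degron line, and it was higher in the SDS22-degron line by 1.02 ± 0.23 untreated (adjusted p = 0.00254) and 0.75 ± 0.19 treated (adjusted p = 0.00295). ROBO3, the one ROBO receptor with enough counts to be tested, rose by 0.64 ± 0.15 in the SDS22-degron line, from 13.1, 12.5 and 11.2 CPM to 15.2, 23.4 and 19.02 CPM (adjusted p = 0.00156). In the parental line ROBO3 was at 16.04, 12.3 and 11.7 CPM untreated and 17.6, 15.4 and 13.7 CPM treated, with overlap and no call.

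Of the ephrins, EFNB2, a transmembrane ligand of EPHB4, was at 88.8, 82.0 and 88.2 CPM in untreated parental cells and fell to 57.8, 49.2 and 55.4 CPM after Dox/IAA, by 1.59-fold (-0.67 ± 0.073 on the log2 scale, adjusted p = 3.62e-06). In the SDS22-degron line it was at 60.1, 61.8 and 61.8 CPM untreated and 54.7, 58.4 and 62.1 CPM treated, where the groups overlapped. Untreated parental cells thus stood apart from the other 3 groups, and the interaction was 0.60 ± 0.10 (adjusted p = 0.000766). EFNA1, a membrane-anchored ligand of EPHA2, rose in both lines, from 15.5, 14.1 and 15.9 CPM to 24.8, 16.7 and 20.6 CPM in the parental line (0.45 ± 0.13, adjusted p = 0.012) and from 13.05, 12.2 and 13.4 CPM to 23.9, 20.2 and 25.4 CPM in the SDS22-degron line (0.85 ± 0.13, adjusted p = 2.3e-05). Without Dox/IAA parental replicate 1 the parental change of EFNA1 was no longer called (adjusted p = 0.0861). EFNA5 was low, at 0.506, 0.469 and 0.659 CPM in untreated parental and 1.60, 1.44 and 1.75 CPM in untreated SDS22-degron libraries (1.53 ± 0.29, adjusted p = 0.000699). It held 6 to 10 counts in parental and 11 to 23 in SDS22-degron libraries, and entered the test through the latter. This untreated call is therefore not independent of the filter. In the SDS22-degron line EFNA5 fell to 0.915, 1.08 and 0.906 CPM with Dox/IAA (-0.71 ± 0.26, adjusted p = 0.0293), a call lost without any of 4 libraries of that line, with DESeq2 and without a filter, and in treated parental libraries it was at 0.525, 0.790 and 0.551 CPM.

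Among EPH receptors, EPHA4, which binds both ephrin classes, was at 9.03, 8.37 and 9.64 CPM in untreated and 9.90, 6.64 and 11.6 CPM in Dox/IAA parental libraries. The SDS22-degron line held 21.9, 19.1 and 19.4 CPM untreated and 30.5, 32.9 and 38.7 CPM after Dox/IAA, both above every parental library and without overlap with each other. The lines differed by 1.16 ± 0.15 untreated (adjusted p = 1.59e-05) and 1.86 ± 0.14 treated (adjusted p = 1.65e-08) on the log2 scale. EPHA4 rose with Dox/IAA by 0.76 ± 0.13 in the SDS22-degron line (adjusted p = 9.06e-05), its change in the parental line was 0.06 ± 0.17 (adjusted p = 0.825), and the interaction of 0.70 ± 0.21 (adjusted p = 0.0319) was lost when any of 6 libraries was left out.

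EPHA2, the most abundant EPH receptor, went the other way between the lines. It was at 408, 354 and 483 CPM in untreated and 425, 334 and 495 CPM in treated parental libraries, and at 275, 301 and 323 CPM and 295, 239 and 326 CPM in the SDS22-degron groups. The untreated groups did not overlap, and every treated SDS22-degron library lay below every treated parental library. The difference was -0.47 ± 0.13 untreated (adjusted p = 0.0113) and -0.54 ± 0.13 treated (adjusted p = 0.00241), and Dox/IAA changed EPHA2 by 0.01 ± 0.13 and -0.06 ± 0.13 in the parental and SDS22-degron lines without a call. EPHA2 lies on chromosome 1, where the median of 1659 tested genes was -0.13 between the untreated lines, and with the median of its chromosome taken out the untreated difference missed the threshold (adjusted p = 0.0614). It was also lost without untreated parental replicate 3 or untreated SDS22-degron replicate 1.

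EPHB2 was at 26.1, 22.4 and 25.9 CPM in untreated parental cells and rose to 38.0, 41.0 and 37.5 CPM with Dox/IAA, by 0.65 ± 0.096 on the log2 scale (adjusted p = 7.94e-05). In the SDS22-degron line it was at 41.0, 41.7 and 47.0 CPM untreated and 48.2, 47.2 and 57.8 CPM treated, a rise of 0.24 ± 0.090 (adjusted p = 0.0325), and the untreated difference between the lines was 0.80 ± 0.096 (adjusted p = 6.57e-06). The SDS22-degron rise was lost without any of 4 libraries, among them Dox/IAA replicate 3 of that line, and the interaction of -0.41 ± 0.13 (adjusted p = 0.045) without any of 9. EPHB4, the most abundant EPHB receptor, was at 124, 123 and 141 CPM in untreated parental and 105, 109 and 108 CPM in untreated SDS22-degron libraries (-0.27 ± 0.076, adjusted p = 0.0122, and adjusted p = 0.075 without untreated parental replicate 3). After Dox/IAA EPHB4 was at 123, 108 and 130 CPM and at 114, 105 and 118 CPM, where the lines overlapped.

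In the interaction, 10 members were called higher, meaning a more positive Dox/IAA effect in the SDS22-degron line (background 6.03%), and 2 were called lower, EPHB2 and NTN1 (background 8.35%). The 10 were the ligands SEMA3C, SEMA3D, SEMA4B, SEMA6B, NTN4 and EFNB2 and the receptors PLXNB2, NEO1, UNC5B and EPHA4. With the cut-off of the study SEMA3D passed as higher (background 1.15%) and NTN1 as lower (background 2.46%). The count of 10 became 5 without untreated parental replicate 3 and 6 without untreated replicate 2 or Dox/IAA replicate 3 of the SDS22-degron line, and the count of 2 became 1 without any of 9 libraries. The call of SEMA6B (0.34 ± 0.11, adjusted p = 0.0365) was lost without any of 6 libraries. The calls of NTN1, EFNB2, PLXNB2, SEMA3D, SEMA4B and UNC5B held in every alternative tried that gives an interaction.

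The 26 tested members not given by library are summarised by counts and ranges. In the SDS22-degron line 14 of them rose with Dox/IAA (background 26%) and PLXNA1 fell (background 25.5%), with log2 fold changes from -0.61 (SLIT1, not called) to 0.93 (EPHB6). In the parental line 11 rose (background 15.9%) and none fell (background 15.7%) without the block, from -0.47 (SEMA3A, adjusted p = 0.0563) to 1.14 (NTNG2, adjusted p = 0.0761). Between the untreated lines 3 were higher (background 13.2%) and 4 lower (background 15%), and between the treated lines 7 were higher (background 21.8%) and 3 lower (background 23.1%). None of them was called in the interaction (backgrounds 6.03% and 8.35%), where their values ran from -1.10 (SLIT1) to 0.59 (SEMA3A), with 0 passing by edgeR's quasi-likelihood test. With the replicate block 11 members were higher in the interaction (background 8.39%) and 3 lower (background 10.4%), with SEMA3A (0.60, adjusted p = 0.00703) and PLXNA1 (-0.26, adjusted p = 0.0433) added.

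Chromosome position moved with a few differences between the lines. On chromosome 3, which holds 7 tested members (EPHB3, PLXNA1, PLXNB1, PLXND1, SEMA3B, SEMA3F and SEMA3G), the median over all tested genes was -0.27 between the untreated and -0.26 between the treated lines. With each chromosome's median taken out, the untreated difference of EPHB3 went from 0.33 ± 0.18 (adjusted p = 0.179) to 0.59 (adjusted p = 0.0178). The number of members lower in the SDS22-degron line went from 11 (background 15%) to 8 untreated and from 6 (background 23.1%) to 4 after Dox/IAA. The share of all tested genes called lower with the medians taken out is not given here, so this drop is not read as particular to the members. The part of chromosome position in the members' differences was not tested further.

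Other genes of these pathways, a list of 70 partners and cytoplasmic effectors of which 62 were tested, were read beside the members. With Dox/IAA in the SDS22-degron line 27 rose, or 43.5% against 26% of all tested genes, and 9 fell, or 14.5% against 25.5%. In the parental line 21 rose, or 33.9% against 15.9%, and 6 fell, or 9.68% against 15.7%. The list's medians were 0.18 and 0.11 on the log2 scale. Between the untreated lines 17 were higher (27.4% against 13.2%) and 13 lower (21% against 15%), and between the treated lines 25 were higher (40.3% against 21.8%) and 8 lower (12.9% against 23.1%). In the interaction 7 were called higher (11.3% against 6.03%) and 3 lower (4.84% against 8.35%), and the median was 0.05.

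FYN, a Src family kinase downstream of several guidance receptors, was at 12.1, 11.1 and 11.4 CPM in treated parental and 28.2, 23.2 and 26.9 CPM in treated SDS22-degron libraries, a difference of 1.18 ± 0.10 on the log2 scale (adjusted p = 5.31e-08). KALRN, a guanine nucleotide exchange factor, was at 2.40, 2.69 and 2.99 CPM and 7.70, 8.05 and 5.60 CPM in the same groups (1.41 ± 0.18, adjusted p = 5.47e-06). For FYN and KALRN the treated lines did not overlap. Between the untreated lines KALRN was already higher by 1.78 ± 0.20 (adjusted p = 4.68e-06), and its interaction of -0.38 ± 0.28 missed the threshold (adjusted p = 0.416). FYN was higher between the untreated lines by 0.50 ± 0.11 (adjusted p = 0.00241), with an interaction of 0.68 ± 0.15 (adjusted p = 0.00535). DRAXIN, a secreted ligand of DCC, rose with Dox/IAA in the SDS22-degron line from 2.84, 4.47 and 3.64 CPM to 7.17, 9.45 and 8.73 CPM, and in the parental line it was at 5.49, 6.18 and 8.90 CPM untreated and 6.15, 6.004 and 8.10 CPM treated. Its interaction was 1.22 ± 0.28 (adjusted p = 0.00667).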

How the data were processed

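The series holds 1 table of raw read counts per gene for 12 libraries, with gene position, length and GC content. Poly-A selected, stranded libraries were sequenced as single reads, and the authors deposited the counts without normalization. The submitters' processing notes name cutadapt 1.15, Bowtie2 2.3.3.1, STAR 2.5.2b, SAMtools 1.5, featureCounts 1.5.3 and the build GRCh38, without roles, and the strand setting of the counting is not given in the sources used here. Members that overlap a gene on the other strand, EPHA1, EPHA5, EPHB4, PLXNA3, PLXNC1, SEMA4D, SEMA4G, SEMA6A, SEMA6D, UNC5B and UNC5D, are therefore uncertain to that extent, as are UNC5CL and ROBO2, which overlap OARD1 and RP11-550F7.1 on their own strand. The GC percent of each gene, as deposited by the authors, served for a GC correction.

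Genes were filtered by edgeR's filterByExpr with a minimum count of 10 by group, scaled by TMM and fitted as 4 group means over all 12 libraries with the quasi-likelihood test of edgeR 4.0.16 (R 4.3.3), adjusted by Benjamini-Hochberg over 16657 genes. Levels are TMM-scaled CPM, shown for each library or as mean ± SD over 3 libraries, and ± beside a log2 fold change is the standard error. The study itself used edgeR's likelihood ratio test. A member is given by library when it passed with a log2 fold change beyond 1 in size in some comparison, had the highest level per length in its family, or was called in the interaction, which named 27 members. Genes of the pathway list are given with values when they passed with a log2 fold change beyond 1 in size between the treated lines or in the interaction, and one that did so is not reported here. The members and gene lists were chosen with earlier results of these data known. Same-numbered libraries correlated, in their deviations from the group means, at 0.124 to 0.246 in the 3 pairs within the parental line and at 0.101 to 0.138 in the 3 pairs of the treated lines, so the numbers were read as pairing there, on the data alone, and blocked values that change a call are printed. The 3 pairs between the untreated lines came close, at 0.0584 to 0.118, and their blocked values are printed as well. The script was tested on simulated counts. Tried as alternatives were DESeq2 1.42.0, the likelihood ratio test, library size and upper-quartile scaling, other filters, GC correction, chromosome medians, a replicate block, the groups compared alone, and leaving out each library. Depth was 12133915 to 14657508 counts per library, so members near 1 CPM rest on few reads. Promoter windows came from RefSeq tables on GRCh38.p14, and figures were drawn with matplotlib 3.10.9.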

Additional observations from a re-analysis of the deposited data

Results flagged for a closer look

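In 12 members the Dox/IAA effect differed between the lines by the interaction term of edgeR's quasi-likelihood test at an adjusted p under 0.05. Of these 10 were higher (background 6.03%) and 2 lower (background 8.35%). The calls of EPHB2, NTN4, NEO1, EPHA4, SEMA6B and SEMA3C were lost when certain single libraries were left out. Values are the log2 effect in the SDS22-degron line minus that in the parental line. The effect was less positive in the SDS22-degron line for NTN1 (-1.27), which rose in both lines, and for EPHB2 (-0.41). It was more positive for SEMA3D (1.62), NTN4 (0.81), UNC5B (0.80), EPHA4 (0.70), EFNB2 (0.60), SEMA3C (0.59), SEMA4B (0.56), PLXNB2 (0.51), NEO1 (0.41) and SEMA6B (0.34). SEMA3D, EFNB2 and UNC5B fell in the parental line, and of these UNC5B rose in the SDS22-degron line. Groups of 3 libraries were not searched for single libraries that stand apart.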

How the results depend on the processing

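Among the 27 named members, none of the 76 called values changed sign under the alternatives run, while 21 of the 59 uncalled values did, such as NRP2 with Dox/IAA in the parental line (-0.56 to 0.81) and PLXNC1 between the untreated lines (-0.91 to 0.40). Of 76 called values 60 kept their call in all alternatives and 16 lost it in some, and of 59 uncalled values 46 kept theirs and 13 were called in some. The 27 were named partly for their calls in these data, so these counts do not stand for all tested members. The cut-off of the study left 4 members higher and 1 lower between the treated lines, 7 and 3 between the untreated lines, 5 and 0 with Dox/IAA in the SDS22-degron line, 4 and 1 in the parental line, and 1 and 1 in the interaction. Members lower with Dox/IAA in the SDS22-degron line numbered 1 with DESeq2 and 1 without a filter. Members lower in the parental line numbered 5 without a filter, 5 with a replicate block and 7 with the replicate block and GC correction. Leaving out 1 library at a time gave 17 to 23 higher and 3 to 7 lower members between the treated lines, 11 to 14 and 7 to 12 between the untreated lines, 28 to 33 and 1 to 2 in the SDS22-degron line, 17 to 21 and 3 to 5 in the parental line, and 5 to 11 and 1 to 2 in the interaction. The cause of these shifts was not tested. Replicate numbers were read as pairing only within the parental line and between the treated lines, a choice made after seeing the correlations. Same-numbered pairs of the untreated lines correlated at 0.0584 to 0.118, close to the 0.101 to 0.138 of the treated lines. Over all groups 7 of 18 same-numbered pairs correlated above 0.1 (-0.0569 to 0.246). Averaged over the other groups, each of the 12 libraries correlated best with its own number, but single pairs did not all follow. Untreated SDS22-degron replicate 1 had its highest value, 0.0685, with Dox/IAA SDS22-degron replicate 2. With the replicate block the members called went from 26 to 28 between the treated lines and from 22 to 26 between the untreated lines. They went from 35 to 36 in the SDS22-degron line, 24 to 26 in the parental line and 12 to 14 in the interaction. No member call was lost. The calls over all tested genes rose as well, from 7486 to 8025 between the treated and from 4698 to 5382 between the untreated lines. All calls went from 8580 to 9082 in the SDS22-degron line, 5264 to 5985 in the parental line and 2396 to 3128 in the interaction. Whether the members gained more calls than other genes was not tested. The fit of only the groups compared gives no interaction. Scaling alternatives moved the median of all genes by at most 0.058 on the log2 scale. Depth limits the low members: PLXNC1, NRP2, PLXNA2, EFNA5, SEMA3D and SEMA3E rest on few counts in their lowest group.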
